A study of Mus musculus with 7 samples.

Results

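Of the 26965 H3K9me3 peaks in the deposited lists of Setdb1 cKO iMEFs, 402 lay on exons of protein-coding genes and away from promoters. These exonic peaks were on chromosomes 1 to 19, shared at least 1 bp with an exon of a protein-coding gene of GENCODE M1 (mm9), and shared no base with a window from 2 kb upstream to 0.5 kb downstream of any transcript start. The WT list held 342 of them among 21957 autosomal peaks, and the KO list held 60 among 3668. H3K9me3, histone H3 trimethylated at lysine 9, was mapped by chromatin immunoprecipitation and sequencing (ChIP-seq) of native chromatin cut with micrococcal nuclease, with a polyclonal antibody. Setdb1 cKO iMEFs are immortalized mouse embryonic fibroblasts with a conditional allele of Setdb1, and both libraries came from these cells. WT stands for untreated cells and KO for cells given 4-hydroxytamoxifen (4OHT), which induces the deletion, for 4 days and harvested on day 7. Each group was 1 library, so WT and KO could be compared by values and counting intervals alone, without p-values. The study's methods describe 1 recloned line that was chosen for a good response to 4OHT. Peak lists carry no measure of expression or of the Setdb1 allele, so neither the cell type nor the deletion could be checked here.

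Setdb1 is a histone methyltransferase that places H3K9me3. It can be brought to DNA by the corepressor Trim28, which itself is recruited by zinc finger proteins that carry a KRAB domain. For VL30, a family of endogenous retroviruses, the study reports that keeping it silent in MEFs mostly did not need Trim28. H3K9me3 is best known from silent repeats such as endogenous retroviruses, but it also covers the clustered genes of the C2H2 zinc finger family, whose fingers are mostly encoded in tandem in a single long last exon. Homeobox genes, which encode developmental transcription factors with a homeodomain, are more often discussed as targets of another repressive mark, H3K27me3.

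To show what kind of sequence the exonic peaks covered, peaks lying wholly in coding sequence and at most 300 bp wide are printed from mm9, on the strand of the gene. Capitals mark codons that belong to a match of the C2H2 finger pattern, and lower case marks the rest, mainly the linkers between fingers. The first 3 were the highest-scoring WT peaks of this kind that shared no base with a KO peak. They lay at chr4:145127248-145127486 and chr4:145127615-145127808 in exon 5 of 5 of Gm13225, plus strand, and at chr5:110372253-110372465 in exon 4 of 4 of Gm15446, plus strand. Finger codons made up 176 of 239, 138 of 194 and 159 of 213 bases.
Gm13225 first peak: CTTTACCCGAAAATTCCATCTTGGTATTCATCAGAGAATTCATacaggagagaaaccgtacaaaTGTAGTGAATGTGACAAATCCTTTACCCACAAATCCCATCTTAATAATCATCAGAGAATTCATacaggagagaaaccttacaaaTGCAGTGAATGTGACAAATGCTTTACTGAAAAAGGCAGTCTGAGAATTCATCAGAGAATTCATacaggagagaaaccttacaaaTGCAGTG
Gm13225 second peak: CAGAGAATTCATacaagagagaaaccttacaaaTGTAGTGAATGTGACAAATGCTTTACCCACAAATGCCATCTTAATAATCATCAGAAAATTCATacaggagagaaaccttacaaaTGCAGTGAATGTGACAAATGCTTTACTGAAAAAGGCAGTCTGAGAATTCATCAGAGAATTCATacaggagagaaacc
Gm15446 peak: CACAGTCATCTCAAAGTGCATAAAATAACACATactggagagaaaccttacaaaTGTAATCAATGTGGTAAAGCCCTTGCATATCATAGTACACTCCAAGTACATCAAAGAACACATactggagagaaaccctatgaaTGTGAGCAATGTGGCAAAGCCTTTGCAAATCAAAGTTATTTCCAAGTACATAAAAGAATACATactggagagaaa
The next 3 were the highest-scoring peaks of this kind found in KO and not in WT. They lay at chr11:103478760-103478953 in exon 1 of Gm884, at chr10:78310045-78310149 in the single exon of the olfactory receptor gene Olfr1356, and at chr4:147049600-147049792 in exon 4 of 4 of Zfp534, all on the minus strand. None of their bases lay in a finger match, although Zfp534 had 15 matches elsewhere in its coding sequence.
Gm884 peak: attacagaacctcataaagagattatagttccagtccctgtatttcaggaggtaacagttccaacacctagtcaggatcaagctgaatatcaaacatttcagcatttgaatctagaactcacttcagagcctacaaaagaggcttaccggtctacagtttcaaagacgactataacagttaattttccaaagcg
Olfr1356 peak: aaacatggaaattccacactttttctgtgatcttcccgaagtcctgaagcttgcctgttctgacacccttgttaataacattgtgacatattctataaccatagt
Zfp534 peak: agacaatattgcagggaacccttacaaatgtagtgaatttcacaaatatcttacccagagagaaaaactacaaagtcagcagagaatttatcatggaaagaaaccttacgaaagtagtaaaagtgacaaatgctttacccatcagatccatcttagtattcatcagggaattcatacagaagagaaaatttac
No WT peak that overlapped a KO peak was both wholly coding and this narrow. Chosen after its values were seen, the highest-scoring KO peak of this kind that overlapped a WT peak is shown in their place. It lay at chr4:145291370-145291435 in exon 5 of 5 of Gm13242, plus strand, and 55 of its 66 bases were finger codons.
Gm13242 KO peak: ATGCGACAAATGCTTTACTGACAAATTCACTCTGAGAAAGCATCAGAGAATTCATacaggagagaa
The highest-scoring WT peak of this kind in a homeobox gene, also chosen after its values were seen, lay at chr19:45308390-45308482 in exon 2 of 2 of Lbx1, minus strand. It held none of the bases that encode the homeobox pattern, and its GC content was 74.2%.
Lbx1 peak: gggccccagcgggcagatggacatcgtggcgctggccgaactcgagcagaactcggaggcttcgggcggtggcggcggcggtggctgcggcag

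Most exonic peaks of WT had no counterpart in KO. Of the 342 WT exonic peaks, 13 were touched by a KO peak over at least 1 bp, which was 3.80% (95% Wilson interval 2.23 to 6.39). Over all autosomal WT peaks the share was 2.34%, and it was 1.79% for intron peaks (1.42 to 2.26, 70 of 3906) and 7.23% for promoter peaks (5.69 to 9.15, 63 of 871). The other 329 WT exonic peaks are called lost, in the sense that no KO peak touched them. Of the 60 KO exonic peaks, 11 shared a base with a WT peak, which was 18.3% (10.6 to 29.9) against 15.2% over all autosomal KO peaks. The remaining 49 are called KO-only. Exonic peaks made up 1.56% of the WT list (1.40 to 1.73) and 1.64% of the KO list (1.27 to 2.1), so the intervals of their shares of the lists overlapped although their number differed. All intervals cover counting error only, and peaks of 1 library are not replicates of a condition.

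WT exonic peaks lay on 240 exons of 218 genes, which were 1.06% of the 20544 autosomal protein-coding genes with exon bases that the rule could reach. KO exonic peaks lay on 53 exons of 50 genes, or 0.243%. Of the 218 genes, 78 carried at least 2 WT exonic peaks and 30 at least 3. Among bases of WT exonic peaks that fell in exons, 69.2% were coding and 28.4% were 3′ untranslated, whereas coding bases were 47.0% and 3′ untranslated bases 41.9% of all reachable exon bases. In KO these shares were 50.5% coding and 39.96% 3′ untranslated. The last exon of the transcript hosted 266 of the 342 WT peaks (77.8%, 73.1 to 81.9) and 41 of the 60 KO peaks (68.3%, 55.8 to 78.7). The rule leaves out windows at transcript starts, which takes bases from first exons. The share of reachable exon bases in last exons was not computed, so these shares have no background beside them. A peak was assigned to the gene with most exonic bases under it, and 3 WT and 2 KO peaks touched exons of more than 1 gene. Within that gene, the exon with most bases under the peak was taken, and at a tie the longest. At the edge of the rule, 3 WT peaks and 1 KO peak touched an exon with 10 bp or less (the smallest overlaps were 4 bp at Alb in WT and 8 bp at 1700008F21Rik in KO), and 7 WT and 3 KO peaks outside promoters ended within 10 bp of an exon without touching it. A promoter window took out 148 WT and 40 KO peaks that touched exons. Of the 342 WT exonic peaks, 198 lay wholly in exons (57.9%, 52.6 to 63.0). The width of a peak is therefore not the number of exon bases under it.

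Exons that hosted peaks were long. Their median length was 1432 bp for WT peaks and 1370 bp for KO peaks, against 145 bp over the 202935 reachable exons and 204 bp over exons of zinc finger genes. Exons of 1 kb or more were 65.4% of the WT host exons (59.2 to 71.2, 157 of 240) and 56.6% of the KO host exons (43.3 to 69.05, 30 of 53), against 10.3% of all reachable exons. A longer exon has more bases at which a peak can touch it, so length and peak number cannot be read apart from this comparison alone.

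**Figure D1:**
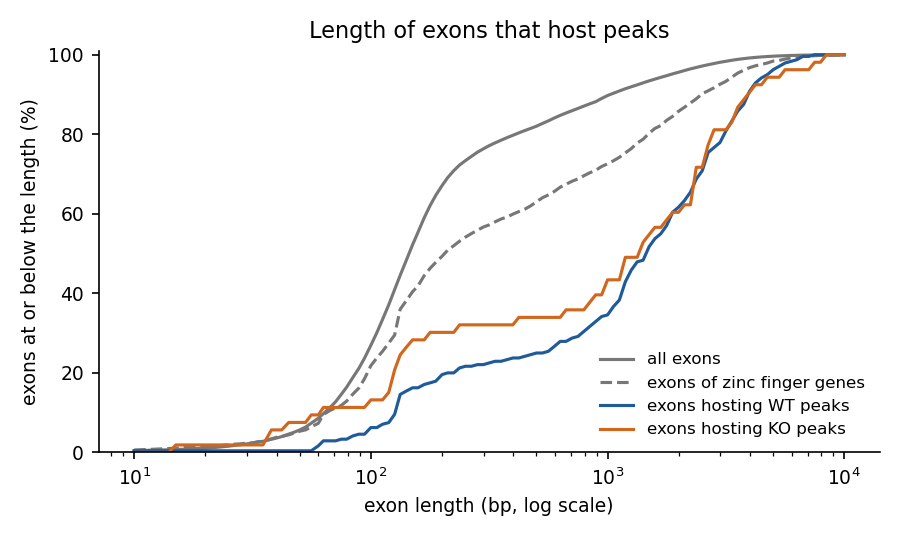
Cumulative length distribution (x axis, exon length in bp on a log scale; y axis, percent of exons at or below that length) of all reachable exons, of exons of zinc finger genes, and of exons hosting WT or KO exonic peaks. Over most of the range both host curves lie to the right of the grey curves, with medians of 1432 and 1370 bp against 145 bp for all exons.

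Genes with C2H2 zinc fingers carried most WT exonic peaks. Genes with at least 3 pattern matches in their longest coding sequence numbered 607 and held 3.80% of reachable exon bases, yet they carried 197 of the 342 WT exonic peaks (57.6%, 52.3 to 62.7). By gene, they were 98 of the 218 genes with a WT exonic peak. Of these 98 genes, 58 had 2 or more WT peaks, so the interval, which treats peaks as independent, is too narrow. Of these 607 genes 98 had a WT exonic peak (16.1%, 13.4 to 19.3), compared with 101 of 19758 genes outside the zinc finger and homeobox groups (0.511%, 0.421 to 0.621). Per Mb of reachable exon, there were 91.4 WT peaks in zinc finger genes and 2.21 in the other genes. In KO the zinc finger genes had 12 exonic peaks on 9 genes, or 5.57 per Mb, and the other genes had 47 on 40 genes, or 0.867 per Mb. The number of exonic peaks was thus 197 in WT and 12 in KO for zinc finger genes, and 120 and 47 for the other genes. Counted by gene, it was 98 and 9 for zinc finger genes, and 101 and 40 for the other genes. The whole autosomal lists held 21957 peaks in WT and 3668 in KO. Whether the loss differed between the gene groups was not tested. The other genes included some that the pattern missed, such as Zfp781 with 0 matches. By symbol alone, 56 of 361 Zfp genes carried 114 WT exonic peaks, which was 33.3% of the WT peaks (28.5 to 38.5), and the KO list had 4 such peaks on Zfp534 and Zfp600.

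The share of genes with a WT exonic peak was higher where the protein had more fingers. It was 0.596% without a match (118 of 19789 genes), 1.35% with 1 or 2 matches (2 of 148), 4.65% with 3 to 5 (8 of 172), 10.3% with 6 to 9 (16 of 155), 26.5% with 10 to 14 (49 of 185) and 26.3% with 15 or more (25 of 95). The last 2 shares did not differ beyond their intervals (20.6 to 33.3 and 18.5 to 36.0). KO shares ran from 0 of 148 genes to 4.21% (4 of 95 genes with 15 or more, 1.65 to 10.3). Zinc finger genes more often had a long coding exon, with the longest at 1500 bp or more in 216 of 607, against 986 of 19758 other genes. Among genes whose longest coding exon was 1000 to 1499 bp, 48 of 208 zinc finger genes (23.1%, 17.9 to 29.3) and 12 of 1226 other genes (0.979%, 0.561 to 1.70) had a WT exonic peak. Over all reachable genes, the share with an exonic peak was 1.06% in WT and 0.243% in KO. Among the 61 genes with a Zscan, Zkscan or Zbtb symbol in GENCODE M1, 0 had an exonic peak in either list, which allows a share of up to 4.92% at 3 counts, and the Klf genes 0 of 16, which allows up to 18.8%. These counts go by the older symbols, and Zfp167, which is Zkscan7 in current RefSeq, had 2 WT exonic peaks with pileups of 11 and 10.

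**Figure D2:**
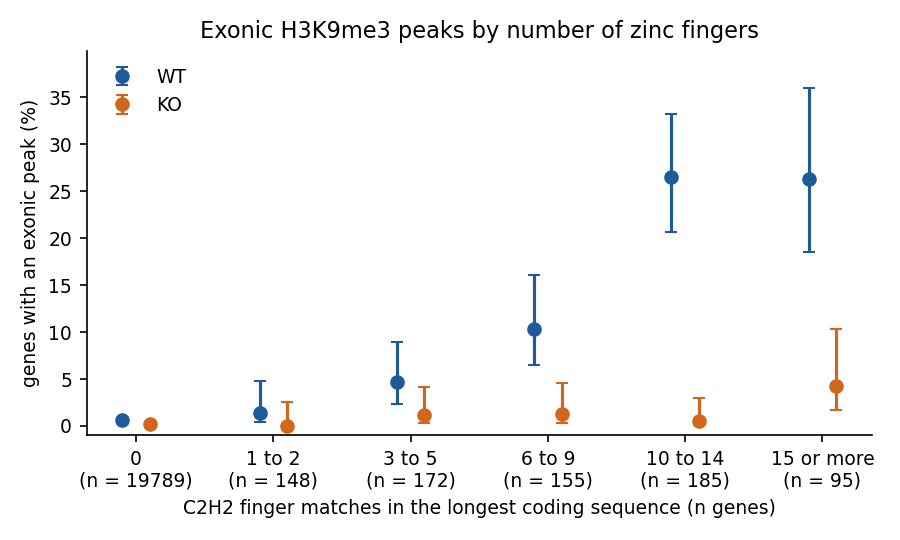
Share of genes with an exonic peak (y axis, percent, with 95% Wilson intervals as bars) by the number of C2H2 matches in the longest coding sequence (x axis, number of genes in parentheses), for WT and KO. WT shares run from 0.596% without a match to 26.5% and 26.3% in the last groups, while no KO share exceeds 4.21%.

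To compare exons with introns without choosing genes by their peaks, the bases under any peak were counted over all genes of a group outside promoter windows. WT peaks lay on 4.35% of exon bases and 0.359% of intron bases of zinc finger genes. In homeobox genes these values were 1.15% and 0.378%, and in the other genes 0.0430% and 0.0908%, where introns had the higher share. KO peaks lay on 0.102% of exon bases and 0.0267% of intron bases of zinc finger genes, and on 0.00970% and 0.0101% in the other genes. Within the coding bases of the 98 zinc finger genes that carried WT exonic peaks, 43.9% lay under those peaks, and finger codons made up 57.4% of the covered coding bases against 47.4% of the reachable coding bases of these genes. Of the 197 peaks, 124 touched a finger (62.9%, 56.0 to 69.4) and 182 lay in the last exon (92.4%, 87.8 to 95.3). For the last exon, the share of reachable bases of these genes was not computed.

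**Figure D3:**
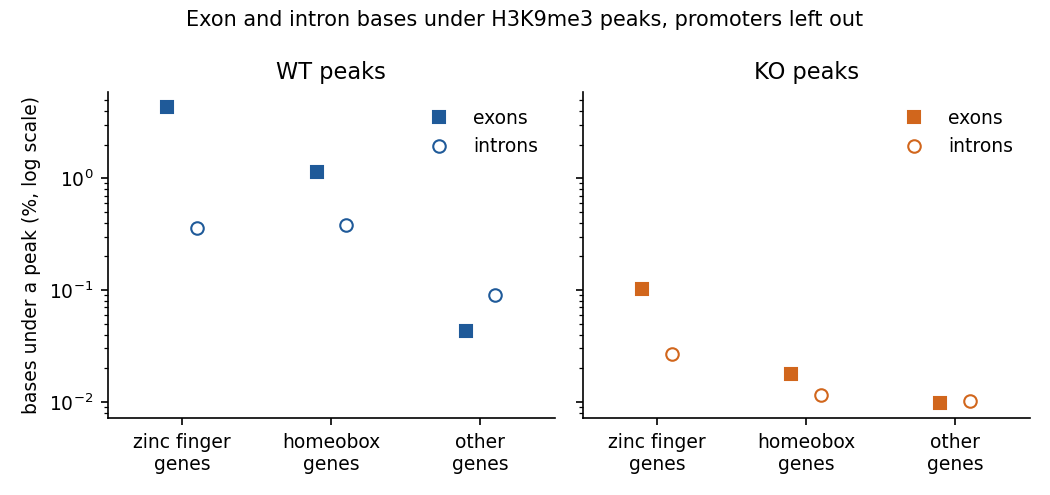
Percent of exon bases (squares) and intron bases (open circles) outside promoter windows that lay under WT peaks (left) or KO peaks (right), on a log scale, for zinc finger, homeobox and other genes. For WT the exon value is above the intron value in zinc finger genes (4.35% and 0.359%) and below it in other genes (0.0430% and 0.0908%).

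The gene with most exonic peaks was Zfp944 on chromosome 17, whose protein had 11 finger matches. Its 6 WT peaks had pileups (the number of fragments at the summit) of 10, 12, 10, 15, 9 and 9 at a local background of 1.16 or 1.32 fragments, every one had a median 31-mer count of 1 in the genome, and none overlapped a KO peak. Zfp942 of the same chromosome, also with 11 matches, had 4 WT peaks, the widest of 2023 bp, with pileups of 15, 13, 11 and 15. The other 8 of the 10 genes with most WT exonic peaks lay on 4 chromosomes. Gm13242, Gm13251, Gm13225 and Gm13145 were on chromosome 4 with 5, 4, 4 and 4 WT peaks, Gm15446 was on chromosome 5 with 4, Zfp873 and 2610008E11Rik were on chromosome 10 with 4 each, and Zfp40 was on chromosome 17 with 4. Current RefSeq symbols of 3 of them are Zfp980 (Gm13242), Zfp992 (Gm13251) and Zfp978 (Gm13145). Gm13242 was the only one of these 10 genes with an exonic peak in KO.

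Among the 5 highest-scoring lost peaks, 4 were in zinc finger genes, where the score is −log10 of the q-value of the peak. The highest was a peak of 3075 bp in exon 4 of 4 of Gm13251, with a pileup of 36, a fold of 10.2 over the local background and a score of 22.7. Gm13139 followed with 2568 bp, a pileup of 31 and a score of 17.5, covering all 2255 bases of its last exon. A peak of 1913 bp in 2610036A22Rik, which had 2 finger matches, reached a pileup of 22 and a score of 14.8. Zfp951 on chromosome 5 and Gm13225 on chromosome 4 both reached a pileup of 25 and a score of 14.4, with widths of 575 and 238 bp. These are high values for a WT exonic peak, since the median pileup of the 342 was 11 and the median score 3.45. The median 31-mer count of Gm13251, Gm13139, 2610036A22Rik and Gm13225 was 4, and reads that fit several places were placed at one of them at random, so near-identical genes could trade reads.

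Zinc finger genes without the Zfp symbol also carried WT exonic peaks. These genes were picked after their values were seen. Prdm9, the meiotic histone methyltransferase that marks recombination sites, had 1 peak of 379 bp with a pileup of 11 over its finger exon, exon 10 of 10. Prdm14, a regulator of germ cell identity, had 1 with a pileup of 13, and Prdm13, a neural regulator, had 1 with a pileup of 10. Zic4, of a family that acts in neural patterning, had 3 peaks with pileups of 9, 11 and 11, and Sp5 and Sp8 had 1 each with 10 and 11. All WT peaks named here had a median 31-mer count of 1. None shared a base with a KO peak, although Prdm13 had a KO exonic peak of its own at another exon, with a pileup of 9.

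Zinc finger genes lie in clusters, and the peaks were spread unevenly over them. Runs of at least 5 zinc finger genes with gaps of at most 500 kb gave 26 clusters with 298 of the 607 genes, and 17 of these clusters had a WT exonic peak on a zinc finger gene. The cluster with most peaks, on chromosome 4 from 145.1 to 147.2 Mb, had 38 WT exonic peaks on 16 of its 18 zinc finger genes. On chromosome 17 from 21.15 to 23.75 Mb, 10 of 23 genes carried 27. On chromosome 5 at 110.1 to 110.6 Mb, 5 of 5 genes carried 15, and on chromosome 2 at 149.9 to 150.3 Mb, 6 of 9 carried 14. The clusters had single-copy peaks in different shares, since 23 of 27 peaks of the chromosome 17 cluster but 5 of 38 of the chromosome 4 cluster had a median 31-mer count of 1. The clusters held 145 of the 197 peaks and 68 of the 98 genes, and zinc finger genes outside clusters held 52 peaks on 30 genes.

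Homeobox genes were the other group with many WT exonic peaks. Of 179 genes with a match to the homeobox pattern, 19 carried 25 WT peaks (10.6% of genes, 6.90 to 15.98), or 67.2 per Mb of reachable exon. None of the 25 shared a base with a KO peak, which allows a share of up to 12% at 3 counts. Over all autosomal WT peaks the share was 2.34%, so this absence does not set the homeobox peaks apart. The KO list had 1 peak in the group, a peak of 64 bp with a pileup of 9 in the 3′ untranslated part of Hoxb13. Six3, named for its homeobox, did not match the pattern and was counted with the other genes. Pileups of the 25 were from 9 to 14 with a median of 9, which is the lowest pileup in the list, so these peaks were close to the limit of what was called. All 25 had a median 31-mer count of 1, and their median GC content was 52.3% against 36.4% for the 197 peaks in zinc finger genes. Coding sequence was touched by 11 of 25 (44.0%, 26.7 to 62.9) against 159 of 197 in zinc finger genes (80.7%, 74.6 to 85.6).

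The homeobox genes named here were chosen after their values were seen and are transcription factor genes of development. Nkx3-2, which acts in cartilage and spleen formation, had 3 WT peaks with pileups of 14, 10 and 9. Six2, a regulator of nephron progenitors, had a peak of 1126 bp with a pileup of 12, the widest of the group. In that peak 387 bases were exonic. Lbx1 had 2 peaks with pileups of 11 and 9, Pdx1, needed for pancreas formation, had 2 with 10 and 9, Gsx2 had 2 with 10 and 9, and Nkx6-1 had 2 with 9 and 9. Genes with a single peak included Barhl2, Barx1, Bsx, Cdx2, Evx2, Gbx2, Gsc, Gsx1, Hoxd11, Nkx2-3, Nkx6-2 and Pou3f1, with pileups of 9 to 11. By family, 4 of 12 Nkx genes and 1 of 38 Hox genes had a WT exonic peak. Among other families of developmental regulators, WT exonic peaks lay on Pax2 and Pax8 of 9 Pax genes, on Atoh1, Neurod2 and Olig3 of 12 proneural genes, and on Sox2 of 17 Sox genes. None of 38 Fox genes had one in either list, which allows up to 7.89%, and none of 12 Tbx genes, which allows up to 25%. Over all reachable genes the share was 1.06% in WT and 0.243% in KO, so these counts of 0 do not set the Fox and Tbx genes apart. All families named here were also chosen after the data were seen.

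The remaining 120 WT exonic peaks lay on 101 genes of many kinds. Some of these are zinc finger genes by name or had too few matches for that group. Zfp781 had 0 matches and the widest WT exonic peak, 4337 bp, with 720 of its bases in exons. Gm13151, which is Zfp988 in current RefSeq, also had 0 matches, and Gm10324 and 2610036A22Rik had 2 each. The highest pileups were at gene models over sequence with very high background. The peaks in Gm10717 and Gm10801 reached 140 fragments at local backgrounds of 89.4 and 86.8, so that their folds were 1.56 and 1.61, and Gm11168 reached 134 at a background of 55.1. A background above 3 fragments was found at 14 of the 120 peaks (11.7%, 7.08 to 18.6) and at 12 of the 197 in zinc finger genes (6.09%, 3.52 to 10.3). Examples with a low background, named after their values were seen, were Gad2, which encodes an enzyme of GABA synthesis (pileup 14 over 1.16, width 1373 bp), and Pax8, a thyroid and kidney regulator (pileup 16 over 1.34). In the Gad2 peak 234 bases were exonic. Protocadherins had 4 WT peaks on 3 of 34 genes. Olfactory receptor genes, of which 1096 could be reached, had 1 WT and 1 KO exonic peak (Olfr56 and Olfr1356), and vomeronasal receptor genes, of which 324 could be reached, also had 1 each (Vmn2r83 and Vmn2r90). The share over all reachable genes was 1.06% in WT and 0.243% in KO.

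Exonic WT peaks differed from the other WT peaks of the list in shape and sequence. Their median width was 260.5 bp (quartiles 145 and 517) against 135 bp for the 21615 other autosomal WT peaks, and 41 of 342 were wider than 1 kb (11.99%, 8.96 to 15.9) against 315 of 21615 (1.46%, 1.31 to 1.63). Their median pileup was 11 against 10, and the lowest pileup of 9 was that of 104 of them (30.4%, 25.8 to 35.5). They were less repeated, as 232 of 342 had a median 31-mer count of 1 (67.8%, 62.7 to 72.6) against 6272 of 21615 (29.0%, 28.4 to 29.6), and 4 against 7458 had a count over 1000 (1.17% and 34.5%). Another WT peak lay within 1 kb of 226 of them (66.1%, 60.9 to 70.9) against 32.8% of the others (32.2 to 33.4). WT promoter peaks lay between in width, copy number and spacing. Their median width was 176 bp, 5.51% were wider than 1 kb and 55.3% were single-copy. A count over 1000 was found at 4.82% of promoter peaks, and another WT peak within 1 kb at 45.1%. A wider peak also has more bases with which to touch an exon, so width cannot be read apart from the rule. KO exonic peaks had a median width of 129 bp against 84 bp for other KO peaks, and 0 of 60 were wider than 1 kb. Single-copy peaks were 35 of the 60 (58.3%, 45.7 to 69.9), close to the 57.7% of other KO peaks (56.1 to 59.3). A background above 3 fragments was found at 14 of 60 KO exonic peaks (23.3%, 14.4 to 35.4) and at 26 of 342 WT ones (7.60%, 5.24 to 10.9). The KO share was also the higher one in the other classes, with 41.03% and 14.01% of promoter peaks, 14.4% and 3.10% of intron peaks, and 14.6% and 3.39% of peaks outside protein-coding genes.

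The 13 retained WT exonic peaks lay on 12 genes, and most were in 1 region. Of these peaks, 9 lay in the zinc finger gene cluster of chromosome 4, on Gm13242, Gm13247, Gm13251, Rex2 (2 peaks), Zfp600, Gm13138, Gm13152 and 2610305D13Rik. Rex2 is a zinc finger gene of this cluster, with 15 finger matches. The remaining 4 were the peaks at Gm10801, Gm10717 and Gm11168 with very high background and 1 at Stxbp5l, a syntaxin-binding protein gene. The chromosome 4 cluster was set apart as the one with most KO exonic peaks in zinc finger genes. A low retained share outside it was therefore partly built in. Outside the chromosome 4 cluster, 0 of 159 WT exonic peaks in zinc finger genes were retained, which allows a share of up to 1.89%. Over all autosomal WT peaks, the cluster included, the share was 2.34%. Over the 301 WT exonic peaks outside the cluster, the retained share was 1.33% (0.518 to 3.37, 4 peaks), and it was 1.29% (0.441 to 3.73) for the 232 single-copy peaks when both lists were restricted to such peaks. Among KO exonic peaks outside the cluster 4 of 49 were shared (8.16%, 3.22 to 19.2).

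Among the retained peaks, pileups were higher in WT for most pairs. At Gm13242, the highest-scoring retained peak, the pileup was 45 over a background of 4.60 in WT and 20 over 2.41 in KO, and the width was 494 bp and 65 bp. At Rex2 the first pair had pileups of 33 and 16 and the second 17 and 10. At Gm13247 they were 29 and 14, at Gm13138 28 and 13, at Zfp600 23 and 16, at Gm13251 18 and 12, and at Gm13152 12 and 10. At 2610305D13Rik the order was turned, with 10 in WT and 12 in KO, and at Stxbp5l both lists had 10. KO pileups were thus lower in 11 of 13 pairs, and KO peaks were narrower in 12 of 13, with a median KO to WT ratio of 0.696 for pileup and 0.132 for width. The fold over the local background, which was lower in KO in 7 of 13 pairs, had a median ratio of 0.905. At Gm13251 and Gm13152 the overlapping KO peak lay in an intron. Background was also higher in WT at 12 of the 13 sites, and pileups are not scaled to library size, so a ratio of pileups includes any difference in depth.

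**Figure D4:**
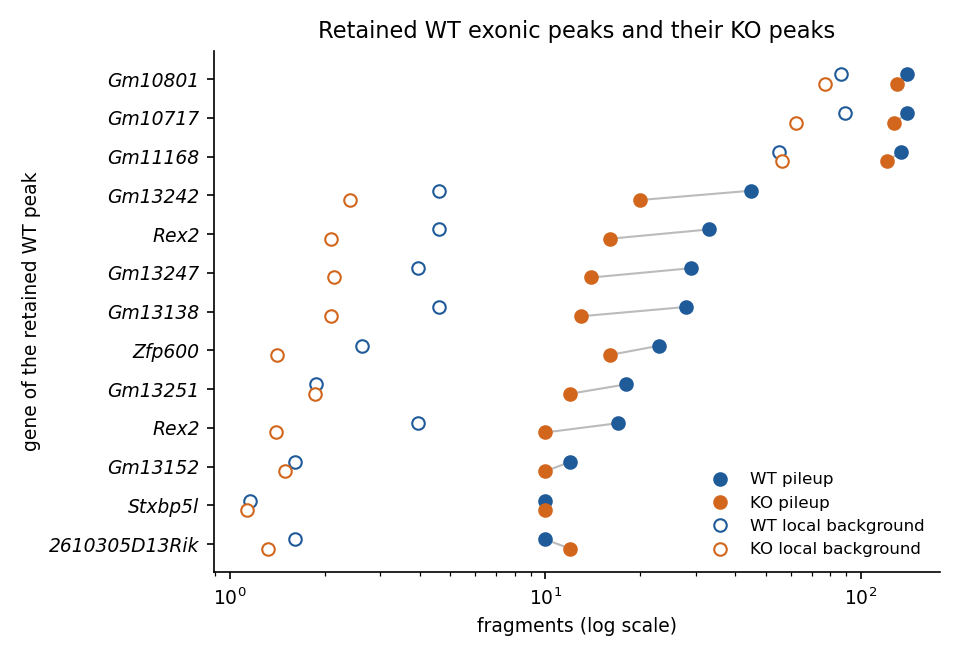
Pileup at the summit (filled) and local background (open) in fragments on a log scale for the 13 retained WT exonic peaks and the KO peaks they overlap, 1 row per pair, named by gene. Pairs in the chromosome 4 cluster have pileups of 10 to 45 in WT and 10 to 20 in KO, and the 3 pairs at the top have backgrounds of 55.1 or more.

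Within the chromosome 4 cluster, the retained share of exonic peaks was above that of the other WT peaks of the same interval. Of 41 exonic peaks, 3 of them in genes with fewer finger matches, 9 were retained (21.95%, 12 to 36.7), against 29 of 393 other peaks (7.38%, 5.19 to 10.4). Exonic peaks there were wider (median 577 bp and 176 bp) and higher (median pileup 18 and 12), and a wider peak has more bases to share, while the median 31-mer count was 4 in both sets. Their part in the difference, and that of choosing the cluster by its KO exonic peaks, was not tested. The cluster held 110 KO peaks in all, and 11 of the 12 KO exonic peaks in zinc finger genes, the other being that in Prdm13. Zfp534 had 3 KO exonic peaks and none in WT, and its last exon lies within the span of 2610305D13Rik on the same strand. Its KO pileups were 18, 11 and 12 over backgrounds of 2.79, 1.54 and 1.73, the nearest WT peaks were 822 to 1307 bp away, and the median 31-mer counts of the 3 peaks were 4, 27 and 4. Gm13051 was the only gene of the cluster without an exonic peak in either list, and 9 WT peaks lay elsewhere in the gene.

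**Figure D5:**
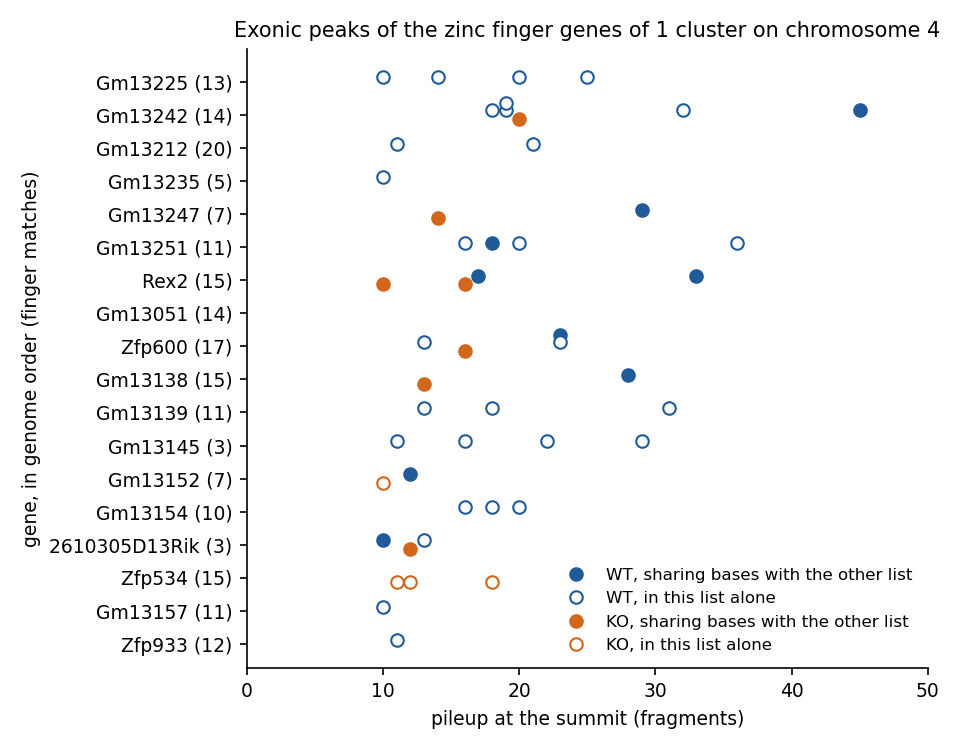
Pileup in fragments (x axis) of each WT and KO exonic peak on the 18 zinc finger genes of the chromosome 4 cluster (rows in genome order, finger matches in parentheses). Filled points share bases with a peak of the other list. Zfp534 has 3 KO points and no WT point, and 8 of the 18 genes have a KO point.

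Of the 49 KO-only exonic peaks, 5 lay in a gene that also carried a WT exonic peak. A WT peak of any kind was within 1 kb of 5 of them, within 10 kb of 24 and within 100 kb of 45. Counting shared peaks too, a WT peak lay within 10 kb of 58.3% of KO exonic peaks. That share was 71.4% for KO promoter peaks, 44.4% for intron peaks and 53.15% for peaks outside protein-coding genes. The highest score, 5.85, was shared by a peak in the 3′ untranslated part of Sox17, a regulator of endoderm, and by one in Gm8159, both with a pileup of 12 at the lowest background of the list, 1.07. The first had a median 31-mer count of 1 and the second of 19. Zfp534 followed with a score of 5.77, then Gm884 with 5.75 and a pileup of 12, and Speer4a with 5.45 and a pileup of 38 over a background of 11.9. Gm15319 had 3 KO-only peaks with pileups of 29 to 31, all at backgrounds above 8 fragments, and A530032D15Rik had 2 with pileups of 23 and 28 at backgrounds of 5.97 and 7.69. Among developmental regulators, picked after the values were seen, Tcfap2b had 2 KO-only peaks and Six3 had 2, with pileups of 9 to 11, and Bmp2, a signalling ligand, had 1 with a pileup of 9. Of the 9 Speer genes, Speer4a and Speer4e had a KO exonic peak, where the share over all genes was 0.243%.

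Exonic peaks of both lists were found on 15 genes. They were 8 zinc finger genes, namely 2610305D13Rik, Gm13138, Gm13152, Gm13242, Gm13247, Prdm13, Rex2 and Zfp600, and 7 other genes, namely Btnl9, C130026I21Rik, Gm10717, Gm10801, Gm11168, Rgs17 and Stxbp5l. At Btnl9, Rgs17, C130026I21Rik, Prdm13 and Gm13152 the KO exonic peak shared no base with a WT peak. At Rgs17, a regulator of G-protein signalling, the pileup was 9 in both lists, and the peaks were 2197 bp apart. At C130026I21Rik the WT pileup was 16 over 3.54 and the KO pileup 24 over 7.69. A KO peak anywhere in the gene was found for 35 of the 218 genes with a WT exonic peak (16.1%), among them 16 of the 98 zinc finger genes, 1 of the 19 homeobox genes and 18 of the 101 other genes. The same share over all reachable genes was not computed, and a longer gene has more bases at which a peak can lie. These shares therefore do not set the genes apart from others.

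Several gene lists had no exonic peak in either list. These were 28 reachable imprinted genes, 16 genes of the H3K9 methylation machinery including Setdb1 and Trim28, and the interferon genes Irf7, Irf9 and Usp18. A count of 0 of 28 allows a share of up to 10.7% and 0 of 16 up to 18.8%, and the share over all genes was 1.06% in WT. Keratin, histone, Mup and defensin genes also had 0 exonic peaks.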

How the data were processed

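H3K9me3 ChIP-seq peaks of Setdb1 cKO iMEFs were analysed, with 1 WT and 1 KO library, and 5 samples of the series (forebrain and input libraries) were not used. According to the study's methods, single-end reads were mapped to mm9 with Bowtie2, a read with several hits was placed at 1 of them at random, and duplicates were removed with Picard. The submitters' processing notes name Bowtie2 2.2.3 and MACS2 2.1.0.20140616, and the options of the peak caller are not given in the sources used here. Each list holds the peaks of 1 library, and whether the input library served as the control is not given in the sources used here. The deposited pileup is a signal, the fragment coverage at the summit. The deposited fold is the ratio of pileup to local background, with 1 added to both, from which the background was recovered. The deposited significance values are −log10 of a p-value and −log10 of a q-value, the second of which is called the score. Read totals are not part of the lists, so pileups were not scaled for depth.

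Start and end were read as counted from 1, which the lists do not state, so starts carry an uncertainty of 1 bp. Exons, coding sequence and promoters came from GENCODE M1 on NCBIM37 (mm9). The copy number of a peak is the median count of its 31-mers in the genome. Zinc finger genes had at least 3 matches of the C2H2 pattern in their longest coding sequence, and homeobox genes had a match of the PROSITE homeobox pattern and fewer fingers. Current symbols were matched by symbol or synonym to the RefSeq table of GRCm38.p6, which gave one for 201 of 218 WT and 46 of 50 KO genes, and no coordinates were taken from it. Lists were compared by shared bases (at least 1 bp). Shares have 95% Wilson intervals, and 0 counts allow up to 3. No test was run, since each group had 1 library. The exonic peaks and gene lists were chosen with earlier results of these data known. Named genes were the 5 highest-scoring lost, retained and KO-only peaks, the 10 WT and 5 KO genes with most peaks, genes with peaks of both lists, and fixed families. The finger and homeobox groups, the clusters and the developmental families were chosen after the data were seen.

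Alternatives covered the score and pileup threshold, the overlap with exons, the exon set, the promoter width, the merging of peaks, copy number and the overlap between lists. Interval code recovered 200 of 200 planted overlaps among 2000 simulated peaks with 0 false ones, and gave the same member and shared counts as bedtools 2.31.1. Computations used Python 3.11.15 with scipy 1.17.1, numba 0.67.0, pandas 2.3.3, numpy 2.4.6 and matplotlib 3.10.9.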

Additional observations from a re-analysis of the deposited data

How the results depend on the processing

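Of 57 values recomputed under alternatives for 5 results, 35 stayed within the counting interval or within 1.5 times the reported number, and reading starts as counted from 0 changed none of the 5. With only peaks at or above the median score of WT (3.04), the number of exonic peaks was 214 for WT and 29 for KO. Requiring a pileup of 15 or more left 73 WT and 18 KO peaks, with 8.22% of the WT peaks overlapping KO, 33.3% of the KO peaks overlapping WT, and 20.5% of the WT peaks on Zfp genes. With coding sequence only, KO had 31 exonic peaks and 40% of the WT peaks were on Zfp genes. Merging peaks within 1 kb gave 215 WT regions and a Zfp share of 25.1%. Single-copy peaks alone gave 35 KO peaks, an overlap of 1.29% for WT and of 5.71% for KO. A reciprocal overlap of at least 50% gave 0.877% and 5.00%, and peaks within 1 kb of each other gave 7.31% for WT.

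Other alternatives were chosen after the data were seen. A local background of at most 3 fragments gave overlaps of 1.58% and 6.52%, leaving out the chromosome 4 cluster gave 1.33% (4 of 301) and 8.16% (4 of 49), and zinc finger genes by pattern in place of the symbol Zfp gave a share of 57.6%. No paired analysis was possible because WT and KO were 1 library each. With 1 library a group, differences between WT and KO cannot be told apart from differences in depth or in the efficiency of the immunoprecipitation, and a peak that is not listed may lie just under the calling threshold.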

Other observations

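Some clusters carried no exonic peak on a zinc finger gene. The cluster with most genes, on chromosome 2 from 174.8 to 177.8 Mb, held 39 zinc finger genes and 51 WT peaks of other kinds but 0 exonic ones on any gene. The cluster on chromosome 8 from 71.75 to 72.32 Mb held 7 zinc finger genes, 105 WT peaks of which 23 overlapped KO peaks, and 56 KO peaks. None of these was exonic on a zinc finger gene, and 2 WT peaks with pileups of 15 and 14 were exonic on D130040H23Rik, which had 0 finger matches. The cluster on chromosome 13 from 66.22 to 67.93 Mb had 29 zinc finger genes, of which 5 carried 8 WT exonic peaks, among 166 WT peaks in all. Per Mb of reachable exon, chromosome 17 had most WT exonic peaks, 19.6, followed by chromosome 4 with 12.02, and chromosome 3 had fewest, 0.677. These were chosen after the values were seen, and none was tested.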
